A study of Mus musculus with 7 samples.

Results

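The 35 autophagy core and receptor genes followed here were chosen by name for their known roles in building the autophagosome, and all 35 were among the 10550 genes counted. They were measured in Kupffer cells, macrophages that live in the sinusoids of the liver, taken without treatment from male C57BL/6 mice at 8 weeks of age. The cells were sorted as CD45+ F4/80+ with low CD11b and no Ly6G or Ly6C, about 10000 per library. Commd10-deficient mice (3 libraries) carried loxP-flanked Commd10 alleles and Cre at 1 copy of the Clec4f locus, a gene expressed by Kupffer cells, while the littermate controls (4 libraries) carried the same Commd10fl/fl alleles without Cre. The series title asks whether COMMD10, a member of a family that acts in endosomal cargo sorting, is needed to maintain these cells. Control animals lacked Cre, so effects of Cre or of the altered Clec4f locus go with the genotype.

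Autophagy encloses cytoplasm, organelles or bacteria in a double membrane and delivers them to the lysosome. An initiation kinase complex and a lipid kinase complex start the membrane, lipid carriers extend it, and ubiquitin-like conjugation enzymes attach proteins of the Atg8 family to it. Cargo receptors then bind both the cargo and the Atg8 proteins. In macrophages the conjugation enzymes also serve uptake of particles through LC3-associated phagocytosis.

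Bulk MARS-seq tags each transcript near its 3′ end and counts it by a unique molecular identifier. Totals were 105462 to 124016 counts for Commd10-deficient cells, 3207144 and 4270240 in the pair of controls titled as set 1 (replicates 1 and 2), and 230942 and 267553 in set 2 (replicates 3 and 4). Levels are given in CPM, the count divided by the library's TMM-scaled total on the usual CPM scale. Before that scaling, on table totals alone, a count of 3 was worth 24.2 to 28.4 CPM in the Commd10-deficient libraries, 0.703 and 0.935 CPM in control set 1 and 11.2 CPM or more in control set 2. No label ties a library to an animal of its own, and the p-values cover library-to-library spread, which may be technical. All 18 Kupffer cell markers listed were counted, with sums of 80241 to 85350 CPM in Commd10-deficient and 74794 to 77974 CPM in control libraries. Hepatocyte markers (12 of 12 counted) summed to 6791 to 7322 CPM in Commd10-deficient libraries, 4916 and 5377 CPM in control set 1 and 9134 to 9404 CPM in control set 2. Sinusoidal endothelial markers (12 of 12) summed to 663 to 744 CPM in Commd10-deficient and 763 to 873 CPM in control libraries. Neutrophil markers (4 of 7) summed to 74.7 to 202 CPM in Commd10-deficient and 40.9 to 98.1 CPM in control libraries. Monocyte markers (6 of 8) summed to 308 to 574 CPM in Commd10-deficient and 229 to 951 CPM in control libraries. Markers of B, T, NK and stellate cells summed to at most 121 CPM in Commd10-deficient and 114 CPM in control libraries for any 1 type. Few of these were counted: 3 of 6 for B and plasma cells, 2 of 7 for T and NK cells and 2 of 7 for stellate cells and fibroblasts. Counted markers at 0 in all Commd10-deficient libraries were Kdr (endothelial), Chil3 (monocyte), Gzma (T and NK cell) and Lrat (stellate cell). The part of these cells in the results was not tested, and in sorted bulk samples fewer cells of a type and less RNA per cell cannot be told apart.

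Commd10 itself had 0, 4 and 2 counts in Commd10-deficient replicates 1, 2 and 3, against 167, 130, 7 and 1 counts in control replicates 1 to 4. These were 0, 37.4 and 16.2 CPM in the Commd10-deficient libraries, against 36.6, 37.3, 32.7 and 4.09 CPM in the controls. The groups overlapped: Commd10-deficient replicate 2 lay at the level of control replicates 1 and 2, and control replicate 4 lay below Commd10-deficient replicates 2 and 3. Commd10 was too sparse in the shallow libraries to check the genotype, and a 3′ tag outside the deleted exons would still be counted.

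None of the 35 autophagy genes passed the test between Commd10-deficient and control Kupffer cells in edgeR's quasi-likelihood fit. Enough counts for the fit were found for 17 of them, and 0 of the 17 had a Benjamini-Hochberg adjusted p under 0.05, against 6.04% of the 3412 genes tested (3.46% higher and 2.58% lower in Commd10-deficient cells). The fold changes of the 17 ran from -0.60 (Atg3) to 1.49 (Ulk2) on the log2 scale, with 10 above and 7 below 0. Their median was 0.054, beside -0.049 over all genes tested. The median size of change, sign aside, was 0.31 for the members and 0.52 for all genes. An unadjusted p under 0.05 was found for 1 member, Gabarap, against 24.2% of all genes. Standard errors of the members ran from 0.24 to 1.02. With no expression filter, 0 of all 35 members were called, against 4.87% of 10550 genes. An unadjusted p under 0.05 was then found for 3 members (Ulk2, Sqstm1 and Atg16l2) and for 1748 of the 10550 genes. DESeq2 called 1 of the 17 members (Gabarap), against 10.9% of all genes, and limma-voom called 0, against 5.86%. Without Commd10-deficient replicate 1 or 2 edgeR called 0 genes of any kind, with 666 and 683 at an unadjusted p under 0.05, so a count of 0 members there says nothing about them.

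**Figure D1:**
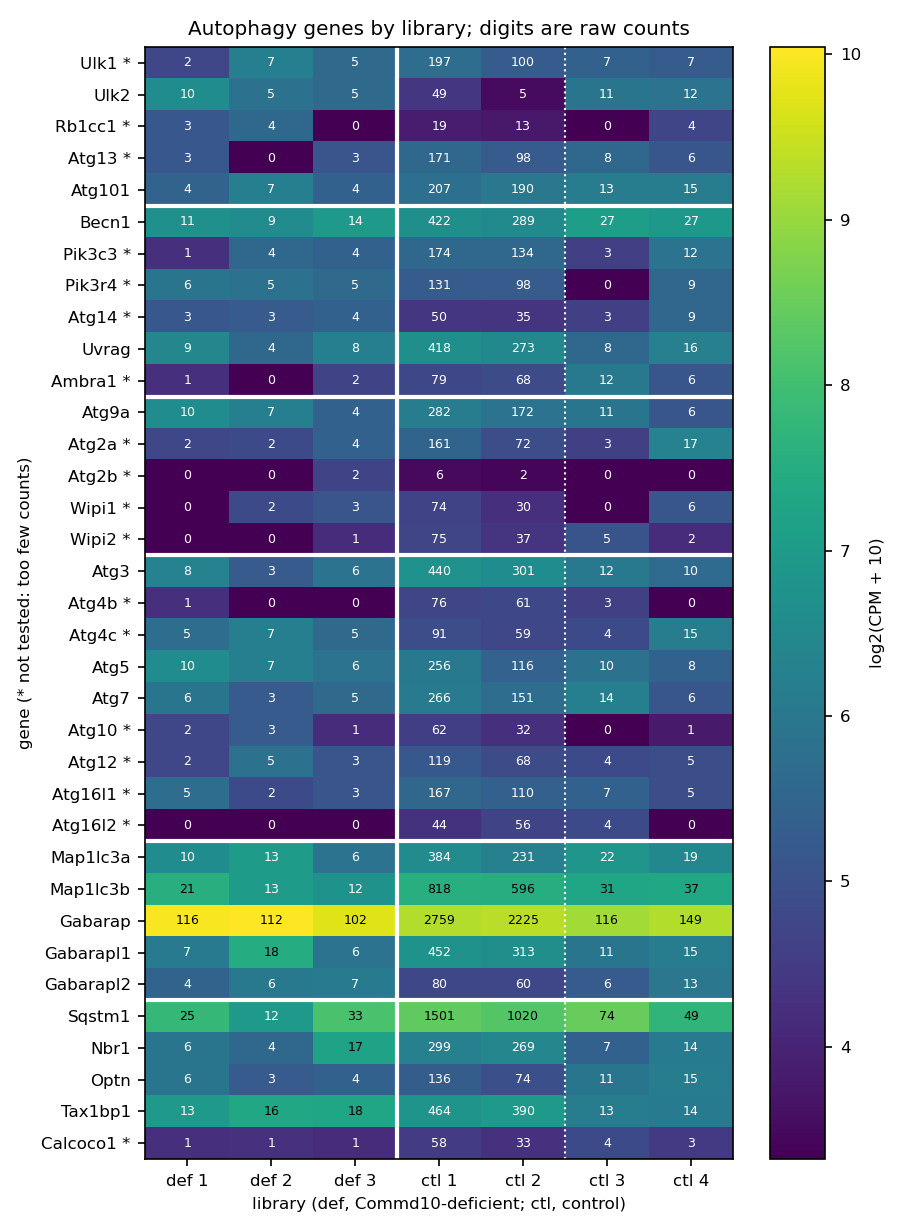
Level of each of the 35 genes (rows, in order of role from initiation to cargo receptors) in each library (columns), coloured by log2(CPM + 10), with the raw count printed in each cell. Gabarap is the brightest row in all 7 libraries, and most other rows hold fewer than 20 counts in the Commd10-deficient libraries.

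Gabarap, an Atg8 family protein that is joined to membrane lipid on the growing autophagosome, was the most abundant member in every library. It held 116, 112 and 102 counts in Commd10-deficient replicates 1 to 3, and 2759, 2225, 116 and 149 counts in control replicates 1 to 4. These were 995, 1046 and 825 CPM in the Commd10-deficient libraries, against 604, 638, 541 and 609 CPM in the controls. All Commd10-deficient libraries lay above all controls, which was so for 1 of the 17 tested members (in either direction) and for 25% of all genes tested. Over the whole table the genotypes did not overlap, in either direction, for 5 of the 35 members, against 16.8% of 10550 genes. Gabarap and Pik3r4 were higher in Commd10-deficient cells, while Ambra1, Wipi2 and Calcoco1 were lower. Wipi2 and Calcoco1 were only narrowly separated, with at most 1 count per Commd10-deficient library. Ambra1 was close too, at 16.2 CPM (2 counts) in Commd10-deficient replicate 3 and 17.3 CPM in control replicate 1. Pik3r4 was at 40.4 CPM (5 counts) in Commd10-deficient replicate 3 and 36.8 CPM (9 counts) in control replicate 4. The means of Gabarap were 955 ± 116 CPM (SD, n = 3) in Commd10-deficient cells and 598 ± 40.7 CPM (SD, n = 4) in controls. Its log2 fold change was 0.67 (SE 0.24, edgeR adjusted p = 0.106). DESeq2 gave 0.68 (adjusted p = 0.0357).

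Set against each control set in a model with 3 levels, Gabarap was higher in Commd10-deficient cells by 0.62 than in control set 1 (SE 0.22, edgeR adjusted p = 0.0528) and by 0.73 than in control set 2 (SE 0.23, edgeR adjusted p = 0.0331). Of these, the contrast with control set 2 passed. With DESeq2 or limma-voom both passed, at adjusted p = 0.00994 and 0.0160 against control set 1. These contrasts share the Commd10-deficient libraries and are not independent. The control sets differed by -0.11 (control set 2 minus control set 1, adjusted p = 0.779). The call against control set 2 was lost without Commd10-deficient replicate 1 (log2 fold change 0.68, adjusted p = 0.112) or replicate 2 (0.65, adjusted p = 0.122), and without control replicate 3 (0.66, adjusted p = 0.165) or replicate 4 (0.82, adjusted p = 0.103). It was also lost with no expression filter (0.59, adjusted p = 0.154). The Gabarap gene spans chr11:69991143-69994951, plus strand, in mm10, and no exon of another gene overlaps its exons.

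**Figure D2:**
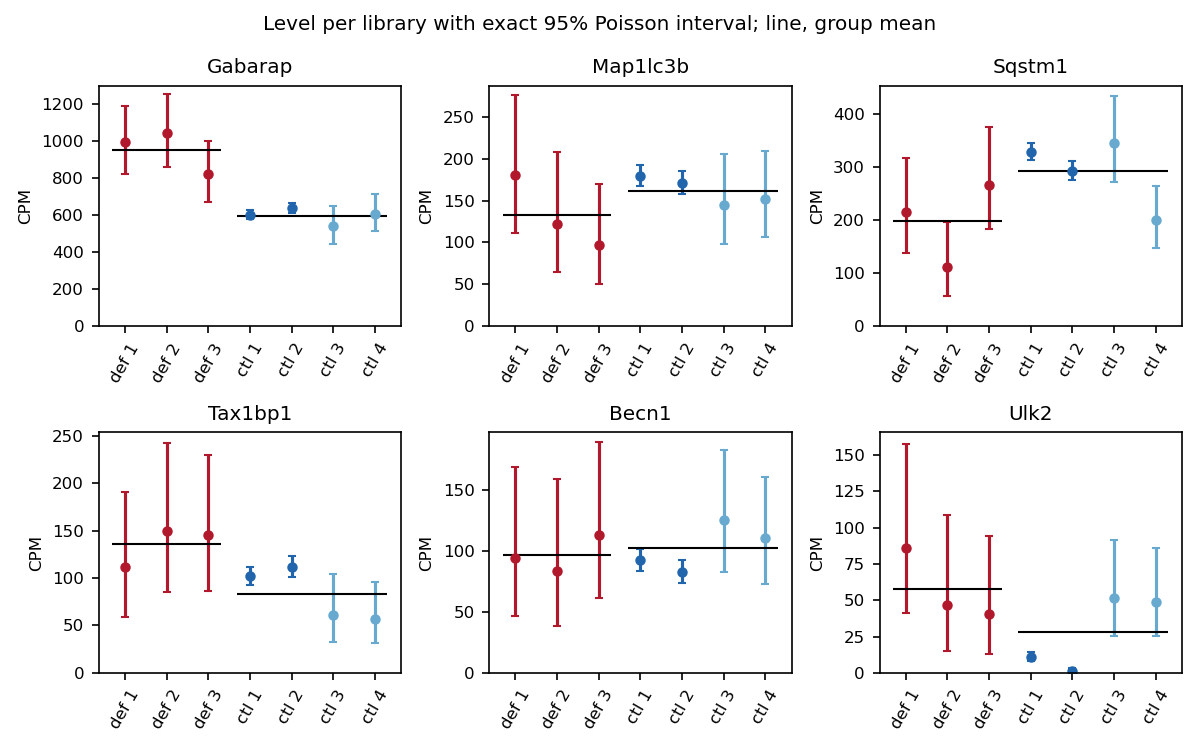
Level (CPM, from 0) of Gabarap, Map1lc3b, Sqstm1, Tax1bp1, Becn1 and Ulk2 in each library, with exact 95% Poisson intervals that cover counting error only; horizontal lines are group means, and red, dark blue and light blue points are Commd10-deficient, control set 1 and control set 2 libraries. Gabarap lies between 825 and 1046 CPM in Commd10-deficient libraries and between 541 and 638 CPM in controls, while the points of Map1lc3b, Sqstm1, Tax1bp1, Becn1 and Ulk2 overlap between genotypes.

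The levels of the other Atg8 family members overlapped between genotypes, and none passed the test. Map1lc3b, which encodes the LC3 protein used most often as a marker of autophagosomes, was at 180, 121 and 97.0 CPM in Commd10-deficient libraries, against 179, 171, 145 and 151 CPM in controls. Its groups overlapped, and the log2 fold change was -0.30 (SE 0.33, edgeR adjusted p = 0.623). Map1lc3a, a second LC3 gene, was at 85.7, 121 and 48.5 CPM in Commd10-deficient libraries and 84.1, 66.2, 103 and 77.7 CPM in controls. The Commd10-deficient libraries spanned the controls, with a log2 fold change of 0.054 (SE 0.41, edgeR adjusted p = 0.945).

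Gabarapl1, a close relative of Gabarap, was at 60.02, 168 and 48.5 CPM in Commd10-deficient libraries and 99.0, 89.7, 51.3 and 61.4 CPM in controls. Commd10-deficient replicate 2, with 18 counts, stood above the rest, and the log2 fold change was 0.21 (SE 0.47, edgeR adjusted p = 0.823). Gabarapl2, the family member first known as GATE-16, was at 34.3, 56.0 and 56.6 CPM in Commd10-deficient libraries and 17.5, 17.2, 28.0 and 53.2 CPM in controls. Its level in control set 1 was below all other libraries, and the log2 fold change over all controls was 0.94 (SE 0.65, edgeR adjusted p = 0.403). It was 1.49 higher than control set 1 (edgeR adjusted p = 0.0736) and 0.25 higher than control set 2 (adjusted p = 0.809). Gabarapl2 met the expression filter only through Commd10-deficient replicates 2 and 3 and control replicate 4, all outside control set 1.

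Summed over the 5 members, Atg8 family transcripts reached 1355, 1513 and 1075 CPM in Commd10-deficient libraries, against 984, 982, 868 and 953 CPM in controls. Gabarap made up 73.4%, 69.1% and 76.7% of the family total in Commd10-deficient replicates 1 to 3 and 61.4%, 65.0%, 62.4% and 63.9% in the controls. All 35 genes together summed to 2684, 2681 and 2450 CPM in Commd10-deficient libraries and 2406, 2230, 2165 and 2176 CPM in controls. Without Gabarap these sums were 1689, 1635 and 1625 CPM in Commd10-deficient libraries and 1802, 1593, 1624 and 1567 CPM in controls, and the groups overlapped.

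**Figure D3:**
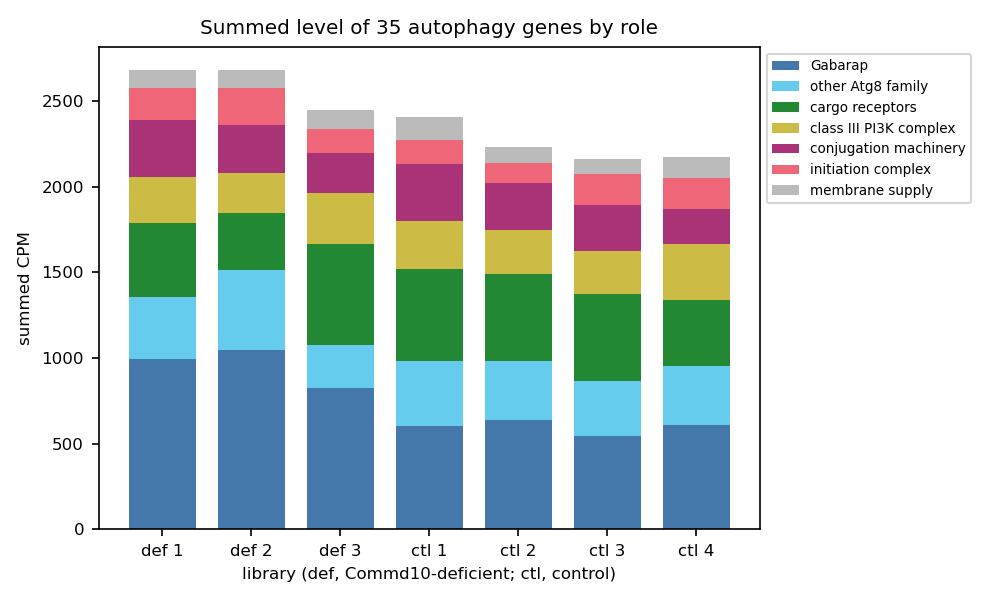
Summed CPM (bar height, from 0) of the 35 genes in each library, stacked by role with Gabarap drawn apart from the rest of its family. The Gabarap segment is 825 to 1046 CPM high in Commd10-deficient and 541 to 638 CPM high in control libraries, and without it the bars of both genotypes overlap.

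Cargo receptors gave no call between Commd10-deficient and control cells. Sqstm1 encodes p62, a ubiquitin-binding receptor that is itself degraded by autophagy. It was at 214, 112 and 267 CPM in Commd10-deficient libraries, against 329, 292, 345 and 200 CPM in controls. Commd10-deficient replicate 2, with 12 counts, was the lowest library, while Commd10-deficient replicates 1 and 3 lay above control replicate 4, so the groups overlapped. The log2 fold change was -0.56 (SE 0.34, edgeR adjusted p = 0.349), with -0.64 against control set 1 (adjusted p = 0.173) and -0.44 against control set 2 (adjusted p = 0.376). With no expression filter the difference from control set 1 passed, at -0.94 (edgeR adjusted p = 0.0208). In that fit the median log2 difference of all 10550 genes was -0.38, beside -0.0071 in the main fit, and 1127 genes were called. The counts of Sqstm1 in control replicates 3 and 4 differed by a ratio of 1.75 (exact 95% interval 1.20 to 2.56), a spread within 1 control set beyond counting error. Exons of Mrnip on the opposite strand overlap those of Sqstm1.

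Tax1bp1, a receptor for ubiquitin-marked cargo, was at 111, 149 and 146 CPM in Commd10-deficient libraries and 102, 112, 60.7 and 57.3 CPM in controls. All Commd10-deficient libraries lay above control set 2, and replicate 1 lay within the range of control set 1. The log2 fold change was 0.64 (SE 0.37, edgeR adjusted p = 0.308), with 1.20 against control set 2 (SE 0.39, edgeR adjusted p = 0.0416) and 0.34 against control set 1 (adjusted p = 0.493). Between the control sets Tax1bp1 was at -0.86 (control set 2 minus control set 1, adjusted p = 0.107). The call against control set 2 was lost without Commd10-deficient replicate 1 (log2 fold change 1.30, edgeR adjusted p = 0.0750), replicate 2 (1.11, adjusted p = 0.117) or replicate 3 (1.10, adjusted p = 0.0888). It was also lost without control replicate 3 (1.25, adjusted p = 0.108) or replicate 4 (1.16, adjusted p = 0.135), with limma-voom (1.18, adjusted p = 0.114) and with no expression filter (1.06, edgeR adjusted p = 0.148). Its longest transcript is long and poor in GC (4249 bases, 39.6% GC). With an offset for GC content and length, chosen after seeing the data, the difference from control set 2 was 0.34 (edgeR adjusted p = 0.613), and that from all controls was -0.31.

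Nbr1, a receptor related to p62, was at 51.4, 37.4 and 137 CPM in Commd10-deficient libraries and 65.5, 77.1, 32.7 and 57.3 CPM in controls. One library, Commd10-deficient replicate 3 with 17 counts, lay above the others, and the log2 fold change of 0.33 (SE 0.49, edgeR adjusted p = 0.721) became -0.48 without it. Optn, which encodes the mitophagy and bacterial cargo receptor optineurin, was at 51.4, 28.0 and 32.3 CPM in Commd10-deficient libraries and 29.8, 21.2, 51.3 and 61.4 CPM in controls (log2 fold change 0.012, SE 0.60, edgeR adjusted p = 0.992). Control set 2 was above control set 1 for Optn by 1.14 (adjusted p = 0.101). Optn met the expression filter only through Commd10-deficient replicate 1 and control replicates 3 and 4. Calcoco1, a receptor for endoplasmic reticulum fragments, held 1 count in each Commd10-deficient library and 58, 33, 4 and 3 counts in the controls, too few for the fit.

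Of the initiation complex, which senses nutrient state and starts the process, Atg101 and Ulk2 were tested and neither passed between genotypes. Atg101, a small subunit that stabilises Atg13, had the highest mean level of its complex over the 7 libraries, though Ulk2 was higher in Commd10-deficient replicates 1 and 3. Atg101 was at 34.3, 65.4 and 32.3 CPM in Commd10-deficient libraries and 45.3, 54.5, 60.7 and 61.4 CPM in controls (log2 fold change -0.31, SE 0.44, edgeR adjusted p = 0.708). The groups overlapped.

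Ulk2, the second of the paired ULK kinases, differed between the control sets, and is given in full because of its values, outside the rule for named genes. It held 10, 5 and 5 counts in Commd10-deficient libraries and 49, 5, 11 and 12 counts in control replicates 1 to 4. These were 85.7, 46.7 and 40.4 CPM in Commd10-deficient libraries, against 10.7 and 1.43 CPM in control set 1 and 51.3 and 49.1 CPM in control set 2. Commd10-deficient libraries and control set 2 overlapped, and both lay above control set 1. The log2 difference was 3.18 between Commd10-deficient cells and control set 1 (SE 0.79, edgeR adjusted p = 0.00900), 0.20 against control set 2 (adjusted p = 0.886) and 2.98 between control set 2 and control set 1 (SE 0.79, adjusted p = 0.0147). Against all controls it was 1.49 (SE 1.02, adjusted p = 0.400). The filter asks for enough level in as many libraries as the smaller genotype group holds. Ulk2 met it only through Commd10-deficient replicates 1 and 2 and control replicates 3 and 4, where it was high. A gene high in control set 1 alone could not be tested, so the calls of Ulk2 against that set cannot serve as support. Within control set 1, replicate 1 held 7.36 times the level of replicate 2 (exact 95% interval 2.95 to 23.7). Without any 1 of the control libraries Ulk2 did not pass the expression filter. Without Commd10-deficient replicate 1 the difference from control set 1 was 2.73 (edgeR adjusted p = 0.100).

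In the model with 3 levels, edgeR called 1 of the 17 members against control set 1 (Ulk2, higher; 19.3% of all genes were called, 11.6% higher and 7.71% lower), 2 against control set 2 (Gabarap and Tax1bp1, higher; 19.1%, 8.7% higher and 10.3% lower) and 1 between the control sets (Ulk2, higher in set 2; 18.7%, 10.9% higher and 7.8% lower). At an unadjusted p under 0.05 these were 3 members (32.8% of all genes), 2 (34.6%) and 5 (34.1%). Ulk2, Gabarapl2 and Optn met the expression filter only through libraries outside control set 1, and no gene could meet it through that set alone. Their differences from control set 1 therefore cannot serve as support. The control sets differed from each other in 637 genes, beside 658 and 650 for Commd10-deficient cells against sets 1 and 2. The sets also differ in depth and in hepatocyte markers (9134 to 9404 CPM in set 2 and 4916 to 5377 CPM in set 1), and the part of either in these results was not tested.

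**Figure D4:**
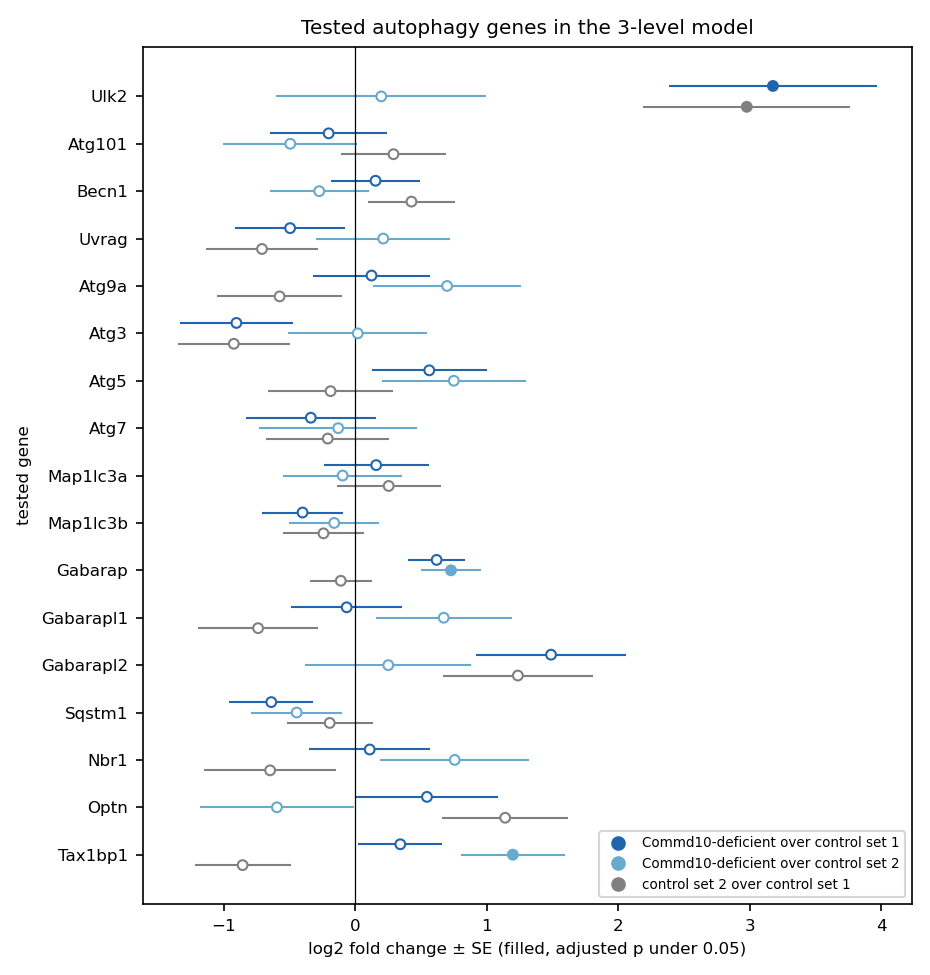
Log2 fold change ± SE of the 17 tested members (rows) for Commd10-deficient over control set 1, Commd10-deficient over control set 2, and control set 2 over control set 1; filled points have an edgeR adjusted p under 0.05. Gabarap lies right of 0 in both contrasts of Commd10-deficient cells and near 0 between control sets, whereas Ulk2 stands at 3.18 and 2.98 in the contrasts with control set 1. Ulk2 met the expression filter only through libraries outside that set.

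The class III PI3-kinase complex makes the phosphoinositide that marks the growing membrane. Its scaffold Becn1 was at 94.3, 84.1 and 113 CPM in Commd10-deficient libraries and 92.4, 82.8, 126 and 110 CPM in controls. The ranges overlapped, with a log2 fold change of -0.044 (SE 0.35, edgeR adjusted p = 0.950). Uvrag, a subunit of the endosomal form of the complex, had a log2 fold change of -0.25 (SE 0.45, edgeR adjusted p = 0.777). Exons on the opposite strand overlap both genes.

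Among genes that supply membrane, the lipid scramblase gene Atg9a had the highest mean level over the 7 libraries, at 85.7, 65.4 and 32.3 CPM in Commd10-deficient libraries and 61.8, 49.3, 51.3 and 24.5 CPM in controls (log2 fold change 0.31, SE 0.47, edgeR adjusted p = 0.721). The groups overlapped. Exons of Gm29253 on the same strand and of Ankzf1 on the opposite strand overlap those of Atg9a.

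Of the 9 conjugation genes 3 were tested and 0 passed. Atg3, whose enzyme transfers Atg8 proteins to lipid, was at 68.6, 28.0 and 48.5 CPM in Commd10-deficient libraries and 96.4, 86.3, 56.0 and 40.9 CPM in controls. Commd10-deficient libraries and control set 2 overlapped, and both lay below control set 1. Atg3 was at -0.60 against all controls (SE 0.48, edgeR adjusted p = 0.480) and at -0.90 against control set 1 (adjusted p = 0.152). It was at 0.020 against control set 2 (adjusted p = 0.984), and control set 2 was at -0.92 relative to control set 1 (adjusted p = 0.137). With the GC and length offset the difference of Atg3 from control set 1 was -1.68 (edgeR adjusted p = 0.00864). Atg5, which is joined to Atg12 to promote that transfer, was at 0.63 (SE 0.43, adjusted p = 0.398), and Atg7, the activating enzyme of both conjugation systems, at -0.27 (SE 0.50, adjusted p = 0.785).

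TFEB and related MiT factors, which drive many autophagy and lysosome genes, bind the E-box CACGTG within the CLEAR element. RefSeq promoter windows (GRCm38.p6, 250 bases before to 50 after a start) were on hand for 29 of the 35 members, with 32 windows in all. CACGTG was in at least 1 window of 4 of the 29 genes, and in 7.15% of 32851 windows of all genes. Members are counted by gene and the background by window, so the shares are not directly comparable. The motif reads the same on both strands. The longer form GTCACGTG, on either strand, was in 3 of the 29 (Atg3, Atg7 and Atg14) and in 2.25% of all windows. These stretches are shown because they are the sites of that motif among the members, with the E-box in capitals and 12 bases on each side, and a match is a description of letters.
Atg3, chr16:45158723-45158752, plus strand: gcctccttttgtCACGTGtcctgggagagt
Atg3, chr16:45158746-45158775, plus strand: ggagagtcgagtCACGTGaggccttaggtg
Atg5, chr10:44268313-44268342, plus strand: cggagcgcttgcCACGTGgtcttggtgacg
Atg7, chr6:114670952-114670981, plus strand: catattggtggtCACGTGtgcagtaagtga
Atg14, chr14:47568418-47568447, minus strand: aaaacaaaatccCACGTGactggccctgag
Those of Atg3 and Atg5 lie just before the gene's start in the GENCODE annotation, and those of Atg7 and Atg14 lie inside the annotated gene, near a RefSeq start. Between genotypes Atg5 was at 0.63 and Atg3 and Atg7 at -0.60 and -0.27, with none past the threshold, and Atg14 was too sparse for the fit. Tfeb and Tfe3 themselves were at -0.42 (edgeR adjusted p = 0.685) and -0.16 (adjusted p = 0.831).

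The remaining 18 members did not reach the counts needed for the fit, and pooled counts are given for them, with exact 95% intervals that cover counting error only. Pooled Commd10-deficient counts per gene ran from 0 (Atg16l2) to 17 (Atg4c), against 8 (Atg2b) to 308 (Pik3c3) in control set 1 and 0 (Atg2b) to 20 (Atg2a) in control set 2. The interval of the ratio to control set 1 lay above 1 for Rb1cc1, Atg14 and Atg4c and below 1 for Atg4b and Atg16l2. Over all 35 members it lay above 1 for 6 and below 1 for 5, against 15.1% and 13.7% of all 10550 genes.

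Rb1cc1, the scaffold FIP200 of the initiation complex, held 7 counts over all Commd10-deficient libraries, against 32 and 4 over control sets 1 and 2, a ratio of 4.73 to set 1 (1.76 to 10.9) and 2.52 to set 2 (0.641 to 11.7). Atg14, which directs the lipid kinase complex to autophagy, held 10 counts, against 85 and 12, a ratio of 2.54 to set 1 (1.18 to 4.91) and 1.20 to set 2 (0.465 to 3.03). Atg4c, a protease that trims Atg8 proteins, had a ratio of 2.45 to set 1 (1.39 to 4.06) and 1.29 to set 2 (0.630 to 2.62). For these 3 genes the interval excluded 1 against the deep set 1 and held 1 against set 2. Control set 2 over set 1 was itself at 2.12 for Atg14 (1.05 to 3.89) and 1.90 for Atg4c (1.11 to 3.07). For Rb1cc1 it was at 1.87 (0.482 to 5.29).

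Atg4b, a second such protease, held 1 count over the Commd10-deficient libraries, against 137 and 3. Its ratio was 0.158 to set 1 (0.00397 to 0.894) and 0.480 to set 2 (0.00915 to 5.98). Control set 2 over set 1 was at 0.328 (0.0669 to 0.980). Atg16l2, a homologue of the membrane-docking subunit Atg16l1, was at 0 in all 3 Commd10-deficient libraries and held 44, 56, 4 and 0 counts in the controls. The exact interval of its ratio to control set 1 reached up to 0.812. With a floor of 3 counts over the pooled Commd10-deficient total, the level in control set 1 was 1.54-fold above that floor. This is no lower bound, since the exact interval allows a smaller difference. Without any 1 of the Commd10-deficient libraries, or without control replicate 2, the interval of Atg16l2 against control set 1 held 1. Against control set 2, with 4 counts at 8.02 CPM, the floor of 8.67 CPM allows no fold. Atg16l1 itself had a ratio of 0.780 to set 1 (0.370 to 1.46). For the kinase gene Ulk1 the ratio was 1.02 to set 1 (0.550 to 1.74) and 1.44 to set 2 (0.637 to 3.26). Atg13, Pik3c3 (the lipid kinase itself), Atg2a and Atg2b (lipid transfer), Wipi1 and Wipi2 (readers of the lipid mark) and Atg12 also had intervals that held 1 against both sets, with 1 to 10 pooled counts each in Commd10-deficient libraries.

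Against control set 2 the interval lay above 1 for Pik3r4 and Atg10 and below 1 for Ambra1 among the 18 sparse genes. Over all 35 it lay above 1 for 5 and below 1 for 1, against 15.1% and 9.73% of all genes. Pik3r4, the regulatory subunit of the lipid kinase, held 6, 5 and 5 counts in Commd10-deficient libraries and 0 and 9 in control replicates 3 and 4, a ratio of 2.56 to set 2 (1.07 to 6.58) and 1.51 to set 1 (0.849 to 2.51). Atg10, the enzyme that loads Atg12, held 6 counts against 1, a ratio of 8.65 to set 2 (1.05 to 398) and 1.38 to set 1 (0.494 to 3.12). Ambra1, a regulator of Becn1, held 1, 0 and 2 counts against 12 and 6, a ratio of 0.240 to set 2 (0.0453 to 0.823) and 0.441 to set 1 (0.0899 to 1.31). Against set 1 the intervals of all 3 genes held 1. Control set 2 over set 1 was at 0.160 for Atg10 (0.0040 to 0.911), 1.84 for Ambra1 (1.06 to 3.01) and 0.590 for Pik3r4 (0.266 to 1.14). With totals scaled by the TMM factors, the intervals of Pik3r4 and Atg10 against set 2 held 1, and that of Ambra1 did not. Without Commd10-deficient replicate 1 or 2, none of the 18 intervals against control set 2 excluded 1, and without replicate 2 none against control set 1 did.

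The controls also differed among themselves. Between control set 2 and control set 1, the interval of the pooled ratio lay above 1 for 6 of the 35 members and below 1 for 11, against 13.8% and 20.8% of all genes. Among the 18 sparse genes it lay above 1 for Atg14, Ambra1 and Atg4c and below 1 for Atg4b and Atg10. With TMM-scaled totals it held 1 for Atg4b and Atg10. The interval of control replicate 1 over replicate 2 excluded 1 for 15 members, against 31.9% of all genes, and that of replicate 3 over replicate 4 did so for 5, against 9.7%.

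**Figure D5:**
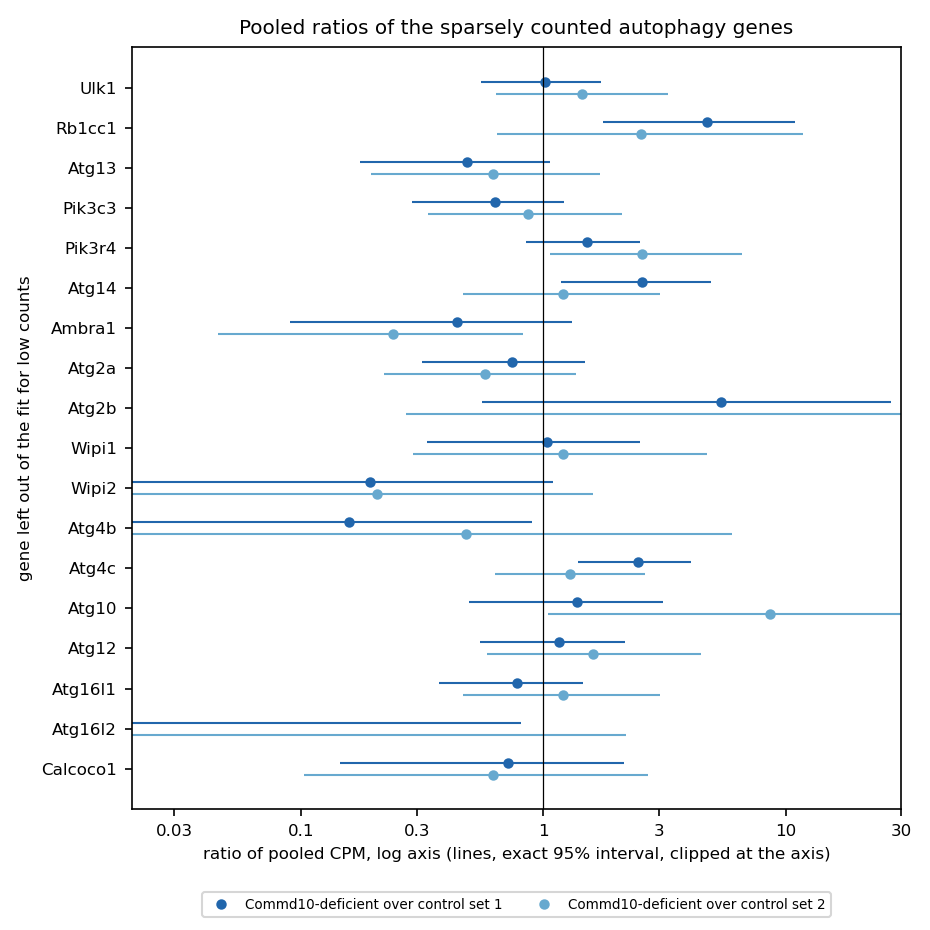
Ratio of pooled CPM (log axis) for the 18 genes left out of the fit, Commd10-deficient over control set 1 (dark) and over control set 2 (light), with exact 95% intervals clipped at the edge of the plot; a line with no point has a ratio of 0 or no count in the control set. Most intervals hold 1, and the widest belong to genes with fewer than 5 counts in the Commd10-deficient libraries, or in control set 2.

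Of 97 other autophagy pathway genes on a list chosen by name, 81 were counted and 44 were tested, and edgeR called 0 of the 44 against 6.04% of all genes, with 7 at an unadjusted p under 0.05, against 24.2%. DESeq2 called 2 of the 44, against 10.9% of all genes, and limma-voom 1, against 5.86%. With no expression filter edgeR called 3 of the 81 (1 higher and 2 lower in Commd10-deficient cells), against 4.87% of 10550 genes. In the model with 3 levels edgeR called 5 of the 44 against control set 1, 6 against control set 2 and 11 between the control sets, against 19.3%, 19.1% and 18.7% of all genes. Fitted with control set 1 only, it called 4 of 27 tested, beside 576 of all 2297 genes tested. With control set 2 only it called 6 of 26, beside 697 of all 2202. Against all controls the median log2 fold change of the 44 was -0.041. Nutrient-sensing genes of mTORC1 and AMPK had 2 above and 9 below 0 of 11 tested, with a median of -0.36 and 0 called. Genes of autophagosome fusion with lysosomes had 5 above and 7 below 0 of 12 tested. Genes of selective autophagy and mitophagy had 5 above and 3 below 0 of 8 tested. Phagophore and other regulators had 8 above and 2 below 0 of 10, and of the transcription factors 1 lay above and 2 below 0.

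Bnip3l and Arl8b, the genes nearest the threshold among the 44 tested, are named after their values were seen, and Arl8a as the paralogue of Arl8b. Genes of the list that the expression filter left out are not ranked here. Next nearest were Fkbp8 (log2 fold change 0.79, edgeR adjusted p = 0.126), Lamtor4 (-1.23, adjusted p = 0.130) and Vcp (-0.81, adjusted p = 0.135). Bnip3l, which encodes the mitophagy receptor NIX, was at 85.7, 112 and 121 CPM in Commd10-deficient libraries, against 26.5, 45.3, 32.7 and 61.4 CPM in controls. The log2 fold change was 1.41 (SE 0.42, edgeR adjusted p = 0.0565). Arl8b, a lysosomal GTPase, was at 77.2, 84.1 and 105 CPM in Commd10-deficient libraries and 20.6, 14.3, 37.3 and 57.3 CPM in controls (1.70, SE 0.53, edgeR adjusted p = 0.0656), and it differed between the control sets by 1.44 (adjusted p = 0.0478). Its paralogue Arl8a was at -1.33 (SE 0.56, edgeR adjusted p = 0.160), with -1.46 between control sets (adjusted p = 0.0175).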

How the data were processed

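Per the file headers, the authors deposited a raw count per gene and library, and beside it a normalized signal. The table's name gives the UMI correction. Each normalized value equals the raw count divided by 1 factor per library, within rounding, so it was used for that check alone. Per the submitters' processing notes, the build was mm10 and the tools included DESeq2, HTSeq and cutadapt. Their versions, the aligner and the handling of strand are not stated there. Exons of another gene overlap 12 of the 35 members, mostly on the opposite strand, so their reads may not all be assigned with certainty.

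Counts were tested with edgeR 4.0.16 (R 4.3.3, quasi-likelihood, robust, TMM factors, default expression filter on genotype), with Benjamini-Hochberg adjustment over all 3412 genes tested and a threshold of 0.05. CPM uses TMM-scaled totals. A model with 3 levels split the controls by set. Standard errors come from the F statistic. DESeq2 1.42.0 and limma 3.58.1 were alternatives. The edgeR fit between genotypes was tested on simulated data, with a common dispersion and no difference between control sets. The other fits were not. Pooled ratios use table totals and exact conditional binomial intervals at 95%, and cover counting error only. Positions come from GENCODE M21. An offset from a loess on GC and length of the longest transcript had values for 97.01% of tested genes.

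The members and lists were chosen with earlier results of these data known. Per-library values are given for members with an unadjusted p under 0.05, for the most abundant member of each role, and for tested Atg8 family genes and cargo receptors; genes outside this rule are said to be so or given by range or pooled count. Depth limits precision: Commd10-deficient libraries hold a median of 4 or 5 counts per member.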

Additional observations from a re-analysis of the deposited data

How the results depend on the processing

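Most members hold few counts in the shallow libraries (a median of 4 or 5 in each Commd10-deficient library), with Gabarap an exception. The number of genes called between genotypes was 206, and it was 576 with control set 1 only, 697 with control set 2 only, 372 with DESeq2, 514 with no expression filter, 119 with the GC and length offset and 0 to 276 when 1 library was left out. Members called between genotypes numbered 0 of 17, and 2 of 6 tested with control set 2 only (Gabarap and Tax1bp1). They numbered 1 with DESeq2 and 0 when any 1 library was left out. All genes called were 697 of 2202 tested with control set 2 only and 372 of 3412 with DESeq2. The 206 were 118 higher and 88 lower, against 166 and 34 with limma-voom, 211 and 303 with no filter, which moves the median of all genes to -0.33, and 51 and 68 with the offset. Against control set 1, genes called were 658, 1127 with no filter and 410 to 665 with 1 library left out. Members called there were 1 of 17, 3 with DESeq2, 3 with the GC and length offset and 2 each with limma-voom and RLE factors. With no filter they were 2 of 35, and with 1 library left out 0 to 2. All genes called there were 677 of 3412 with DESeq2 and 648 of 3310 with the offset. They were 493 of 3412 with limma-voom, 665 of 3412 with RLE factors and 1127 of 10550 with no filter. Against control set 2, genes called were 650 of 3412, 191 of 3412 with limma-voom and 222 to 728 with 1 library left out. With the offset they were 472 of 3310, and with no filter 738 of 10550. Members called there were 2 of 17, 1 each with the offset and limma-voom and 0 of 35 with no filter. With 1 library left out they were 0 to 2. Between the control sets, genes called were 637 and 170 to 770 with 1 library left out, and members 1 and 0 to 1. Sparse members whose interval excluded 1 numbered 5 against control set 1 (0 to 6 with 1 library left out) and 3 against control set 2 (1 with TMM-scaled totals, 0 to 3 with 1 library left out). The cause of these shifts was not tested.

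Among the 17 tested members, values that changed sign between genotypes were all uncalled. They were Atg101 (0.033), Optn (-0.063) and Tax1bp1 (-0.31) with the GC and length offset, Map1lc3a (-0.18), Gabarapl1 (-0.048) and Optn (-0.20) with no filter, and Becn1 (0.093) and Gabarapl1 (-0.10) with limma-voom. With control set 1 only Becn1 was at 0.13 and Gabarapl1 at -0.090, and with control set 2 only Map1lc3a was at -0.055. Without 1 library, Becn1 reached 0.045 (0.015 without Commd10-deficient replicate 2). Atg9a ranged from -0.054 to 0.61, Map1lc3a from -0.31 to 0.32, Gabarapl1 from -0.57 to 0.50, Nbr1 from -0.48 to 0.60 and Optn from -0.33 to 0.14. Gabarap stayed above 0 in every fit between genotypes, from 0.44 with no filter to 0.80 with the offset. No paired analysis was possible because the labels give no replicate numbers that are shared between genotypes.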

Other observations

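At least 1 count was found for 31, 29 and 32 members in Commd10-deficient replicates 1 to 3, against 35, 35, 30 and 32 in control replicates 1 to 4. Brought to the depth of the shallowest library (105462 counts), the expected number with at least 1 count was 30.6, 29.0 and 31.5 for Commd10-deficient and 31.1, 29.8, 28.9 and 30.2 for control libraries. The 35 genes made up 0.269%, 0.272% and 0.244% of the total in Commd10-deficient and 0.257%, 0.243%, 0.201% and 0.199% in control libraries.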
